A study of Mus musculus with 6 samples.

Results

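The Kcnq5-high CD4 T cells of normal mouse kidney were 717 of the 9518 Cd3-positive barcodes in the normal kidney CD4+ library, or 7.53% (exact 95% binomial interval 7.01 to 8.08), out of 54039 barcodes in the whole series. They were defined by measured values: at least 500 detected genes, at most 20% mitochondrial UMIs, at least 1 UMI summed over Cd3d, Cd3e and Cd3g, at least 10 UMIs of Kcnq5, and 0 UMIs of Zbtb16, Foxp3 and Ccr7. A UMI (unique molecular identifier) is a tag that marks 1 captured mRNA molecule. The levels of the genes in that rule are therefore a description of how the cells were picked and not a result.

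The series compared αβ T cells sorted from mouse kidneys by surface CD45, TCR, CD4 and CD8 into CD4+, CD8+ and double-negative (DN, lacking CD4 and CD8) cells, and sequenced each sort as 1 droplet library. All 6 libraries came from male wild-type C57BL/6J mice of 7 to 8 weeks. The 3 normal control libraries came from kidneys with no ischemia and the 3 IR libraries from kidneys after 30 min of clamping of both renal pedicles followed by reperfusion. How many mice contributed to a library is not stated. With 1 library per sort and condition there is no replicate, cells of 1 library are not replicates of a mouse, and no test of a difference was made. Intervals below are exact 95% Poisson intervals for levels and exact (Clopper-Pearson) 95% binomial intervals for shares, and they cover counting error only.

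Kcnq5 encodes Kv7.5, a voltage-gated potassium channel subunit best known from neurons and smooth muscle. Potassium efflux keeps the T cell membrane polarised, and this sustains calcium entry and NFAT signalling after the T cell receptor is engaged. Zbtb16 encodes PLZF, the transcription factor of innate-like T cells such as invariant natural killer T (NKT) cells. Foxp3 marks regulatory T cells, and Ccr7 guides naive and central memory T cells into lymph nodes. CD4+ T cells of a non-lymphoid organ are a mixture of effector, memory, regulatory and innate-like cells, and many of them stay in the tissue under the control of adhesion receptors such as the α4 integrin encoded by Itga4.

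Kcnq5 was common in the normal CD4+ library before the last criterion was applied. Of the 9518 Cd3-positive barcodes, 2745 (28.8%, 27.9 to 29.8) held at least 10 Kcnq5 UMIs. Of these, 1965 (71.6%) also held a Zbtb16 UMI, 69 a Foxp3 UMI and 57 a Ccr7 UMI, which left the 717 members (26.1%). A single Zbtb16 UMI removed 521 of the 2745 barcodes, so an absence at this depth does not show that the cell made no Zbtb16 mRNA. For background, 49 of 9685 Cd3-positive barcodes of the normal CD8+ library held a Zbtb16 UMI (0.506%, median 6943 UMIs per barcode), against 315 of 4180 CD4+ barcodes with 0 Kcnq5 UMIs (7.54%). Kcnq5 in the members ran from 10 to 98 UMIs per barcode with a median of 16 (quartiles 12 and 24). The gene spans chr1:21398403-21961942 in mm10 with 555851 intronic bases, and the study's methods name the default settings of Cell Ranger, under which these versions leave intronic reads out.

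**Figure D1:**
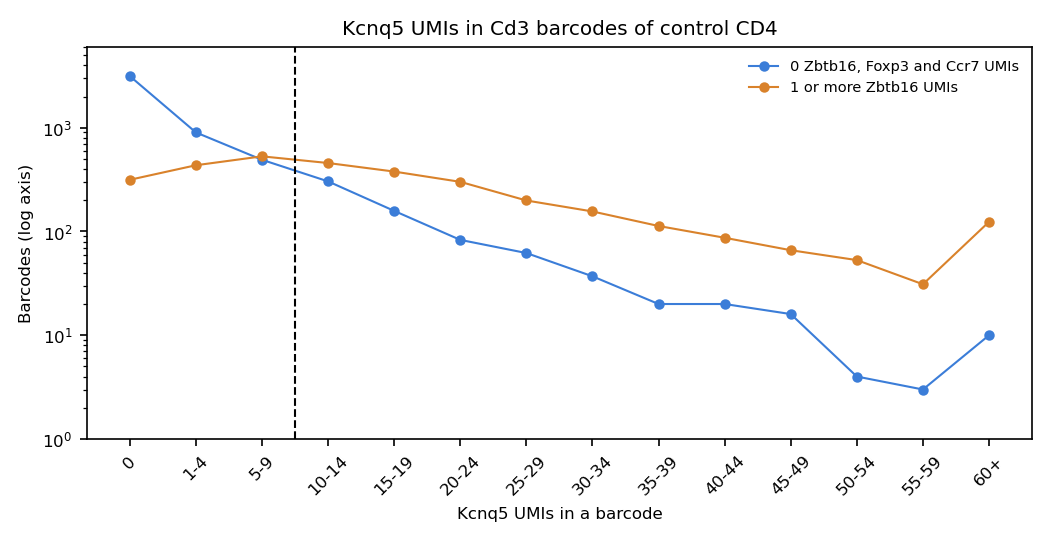
Number of Cd3-positive barcodes of the normal kidney CD4+ library (vertical log axis) by Kcnq5 UMIs per barcode (horizontal axis), drawn apart for barcodes with 0 UMIs of Zbtb16, Foxp3 and Ccr7 and for barcodes with a Zbtb16 UMI, with a dashed line at the limit of 10 UMIs. The 717 barcodes right of the line in the first class are the members, and no gap in the counts sets them apart at the limit.

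The limit cut through a continuous range. The 160 barcodes just outside it, with 8 or 9 Kcnq5 UMIs and 0 of the 3 excluded genes, had a median of 6823 UMIs, and the 127 just inside, with 10 or 11, had 6666. Levels are given as CPM, a group's UMIs of a gene scaled to a fixed total of the UMIs that remain after mitochondrial, ribosomal protein and Malat1 features are set aside. Across the limit Slc35f3 stood at 29.6 CPM outside and 61.3 CPM inside, Il4 at 49.6 and 43.4, Ccr2 at 170 and 214, Klrk1 at 149 and 147, Itga4 at 527 and 477, and Cd4 at 228 and 220. Only Slc35f3 of these 6 genes moved by more than 2-fold over that step.

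Depth differed between some of the groups compared. Members had a median of 7408 UMIs per barcode, the other 8801 Cd3-positive CD4+ barcodes 7253, and the 5392 Kcnq5-high DN barcodes (at least 10 Kcnq5 UMIs, with no condition on the other 3 genes) 9055. The Kcnq5-high CD4+ barcodes with a Zbtb16 UMI had 8765. Summed, the members held 4524911 retained UMIs, so 3 UMIs, the floor used for a gene with none, correspond to 0.663 CPM. Among the 6 libraries the median over Cd3-positive barcodes ran from 1520 to 8554 UMIs and was at least 6943 in the normal libraries and at most 2441 in the IR libraries. Among the members, 6 carried a barcode sequence that also occurred in another normal library, 4 in CD8+ and 2 in DN. Without all barcodes shared among the normal libraries, the counts of genes given below against the other CD4+ barcodes were again 12 and 43, and those against DN were 117 and 107 in place of 96 and 112. In all, 25 members (3.49%) belonged to the 5% of barcodes with the most UMIs, against 478 (5.43%) of the other CD4+ barcodes.

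The sort label held in these cells: Cd4 was read at 166 CPM (154 to 178) and Cd8a at 0, with Cd8b1 at 1.33 CPM. Apart from Kcnq5, 3 genes had been named as marks of the cells, and they were checked against the other groups. Slc35f3, a member of a family of solute carriers, was at 45.8 CPM (39.7 to 52.4) in the members, 31.0 CPM in the other CD4+ barcodes and 103 CPM in Kcnq5-high DN barcodes. Il4, the cytokine of type 2 help, was at 94.4 CPM (85.6 to 104), 96.6 CPM and 128 CPM in the same order. Ccr2, the receptor for CCL2, was at 225 CPM (211 to 239), 178 CPM and 324 CPM. The summed Il4 level was thus about the same in the members and the other CD4+ cells, while the share of barcodes with an Il4 UMI was larger in the members, at 12.3% (9.90 to 14.9) against 7.87% (7.29 to 8.47) after thinning each barcode to 2000 UMIs and 27.1% against 17.5% unthinned. The summed levels of all 3 genes were lower in the members than in Kcnq5-high DN cells, but for Il4 the direction turned against the 1804 DN barcodes that also lacked Zbtb16, Foxp3 and Ccr7, where it was at 74.2 CPM. The other CD4+ barcodes include the 1965 Kcnq5-high barcodes with a Zbtb16 UMI, where Il4 was at 213 CPM, Slc35f3 at 85.5 CPM and Ccr2 at 306 CPM.

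Against the 3146 CD4+ barcodes with 0 UMIs of Kcnq5, Zbtb16, Foxp3 and Ccr7 alike (median 6537 UMIs), the same 3 genes were higher in the members. There Slc35f3 stood at 0.813 CPM (0.433 to 1.39), Il4 at 4.88 CPM (3.86 to 6.09) and Ccr2 at 110 CPM (105 to 115), which put the members 56.3-fold, 19.3-fold and 2.04-fold above them. The thinned share with an Il4 UMI, 12.3% of 694 members, was 0.668% in the Kcnq5-zero barcodes and 0.0125% in the normal CD8+ barcodes (7972 kept), the background for this gene. For Slc35f3 the thinned shares were 4.90%, 0.0703% and 0.263%. Most members held no UMI of either gene at that depth.

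**Figure D2:**
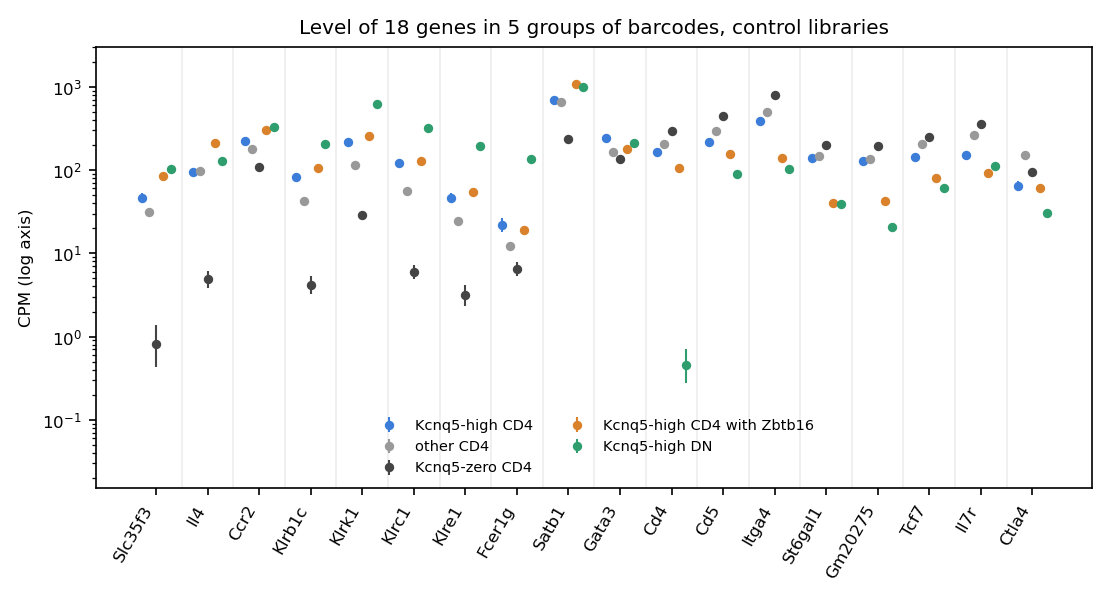
Level of 18 genes in CPM (log axis) in the members, the other CD4+ barcodes, the Kcnq5-high CD4+ barcodes with a Zbtb16 UMI, the CD4+ barcodes with 0 Kcnq5 UMIs and the Kcnq5-high DN barcodes, with bars for 95% Poisson intervals of the summed counts. Klrk1 in the members (220 CPM) lies between Kcnq5-zero CD4+ (28.8 CPM) and Kcnq5-high DN barcodes (629 CPM), and Itga4 (393 CPM) lies between the same groups in the opposite order (794 and 104 CPM).

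The members were first compared with all other CD4+ barcodes. A gene was called when it reached at least 10 CPM in the higher group and differed at least 2-fold, with Kcnq5, Zbtb16, Foxp3 and Ccr7 left out. Of 8804 genes, 12 were called higher in the members (0.136%) and 43 lower (0.488%). The 12 were Pard3, Igfbp7, Nrgn, Plce1, Rab27b, Klra9, Ccl1, Klrc2, Klrc1, Prxl2a, Lonrf3 and Kcnj8. Of these Pard3, Igfbp7, Nrgn, Plce1, Rab27b, Klra9, Lonrf3 and Kcnj8 were under 10 CPM in the other CD4+ barcodes and passed the minimum through the members only. The counts moved with the settings, to 44 higher and 103 lower after thinning, 52 and 105 with at least 20 Kcnq5 UMIs, 109 higher against CD4+ barcodes without Zbtb16, Foxp3 and Ccr7 UMIs, and 82 lower without the 11 members of a cluster led by cell division genes. Several of the 12 rested on very few cells. Of 445 Ccl1 UMIs in the members, 416 (93.5%) came from 2 barcodes, and without those 2 the level dropped from 98.3 to 6.41 CPM, below the 40.9 CPM of the other CD4+ barcodes. Igfbp7 had 47 of its 69 UMIs in 1 barcode and Nrgn 46 of its 69 in 1 barcode. Pard3, a cell polarity scaffold, was at 32.0 CPM against 5.41 CPM, from 33 barcodes of which the top 2 gave 45 of 145 UMIs.

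The genes on the higher side that were carried by many cells included natural killer (NK) receptors. Klrk1, which encodes the activating receptor NKG2D, was at 220 CPM (206 to 234) against 115 CPM in the other CD4+ barcodes, from 231 of the 717 members. Klrc1 and Klrc2, which encode the paired inhibitory and activating receptors NKG2A and NKG2C, were at 122 and 65.9 CPM against 56.4 and 30.1 CPM. Their partner chain Klrd1 (CD94) was at 125 against 66.5 CPM, and Klrb1c, which encodes NK1.1, at 82.4 against 42.5 CPM. Genes of this receptor family have near-identical copies, so UMIs may be split among them. Klrk1, Klrd1 and Klrb1c stood just under the 2-fold limit. Of 9 NK receptor genes with enough signal, 3 were called higher, of which Klra9, at 17.2 against 6.74 CPM from 14 members, passed the minimum through the members only. The median log2 ratio of the 9 was 0.95 against -0.001 over all 8804 genes. Of the genes that this study had itself listed for DN cells, 8 of 9 lay above 0 with 1 called higher (median 0.53), and that list was chosen on these samples and is not independent evidence.

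The 10 genes of 50 CPM or more with the largest ratios over the other CD4+ barcodes also included a glycosyltransferase, a feedback regulator and a microRNA processing enzyme. Gcnt2, which branches poly-N-acetyllactosamine chains, was at 52.4 CPM in the members and 27.2 CPM in the other CD4+ barcodes. Socs2, a brake on cytokine signalling, was at 176 and 94.9 CPM. Drosha, the nuclease that crops primary microRNAs, was at 78.0 and 43.2 CPM, and Acvr2a, an activin receptor, at 72.5 and 42.3 CPM. These 4 stood at less than 2-fold.

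The genes lower in the members included some of regulatory and naive T cells. Ctla4, the coinhibitory receptor, was at 65.0 CPM (57.8 to 72.8) against 151 CPM, and Cd74, the MHC class II invariant chain, at 25.9 against 65.5 CPM. Cxcl10, an interferon-induced chemokine, was at 13.5 against 51.4 CPM, although 35 of its 61 UMIs in the members were in 2 barcodes. Igfbp4, which is high in naive T cells, was at 1.77 against 36.5 CPM, and so passed the minimum through the comparison group only. The rule bears on these directly, since barcodes with Foxp3 or Ccr7 UMIs stay in the comparison group. Of 10 naive and recirculation genes 3 were called lower (median -0.77), and of 8 regulatory genes 1 was called lower (median -0.48). Of all genes tested, 0.488% were called lower. When the comparison was made with Kcnq5-zero barcodes that also lack Foxp3 and Ccr7, the regulatory median was 0.42 and the naive and recirculation median -0.93.

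The comparison with these Kcnq5-zero barcodes, over 8848 genes, gave 128 genes higher in the members (1.45%) and 78 lower (0.882%). Kcnq5 chose both groups, so these counts describe what travels with Kcnq5 among CD4+ cells and are no test. Most NK receptor genes passed the minimum of 10 CPM through the members only, so no count over them is given. Klrc1 stood at 122 against 6.01 CPM, Klrd1 at 125 against 18.5 CPM, Klrb1c at 82.4 against 4.19 CPM, Klrk1 at 220 against 28.8 CPM, and Glis3, a zinc finger transcription factor, at 55.0 against 7.57 CPM. Gata3, the type 2 lineage factor, was at 241 CPM (227 to 256) against 134 CPM, under the 2-fold limit. Satb1, a chromatin organiser of thymocytes and T cells, was at 696 against 233 CPM. On the lower side, Gzmk, a granzyme, was at 8.40 against 51.0 CPM, Zeb2, a factor of terminal effector T cells, at 39.3 against 105 CPM, Il7r, the receptor subunit for interleukin 7, at 149 against 353 CPM, Ccl5, a chemokine, at 813 against 1894 CPM and Itga4 at 393 against 794 CPM.

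The Kcnq5-high CD4+ barcodes that carried Zbtb16 differ from the members, by rule, in that gene. Over 8823 genes, 51 were higher in the members (0.578%) and 34 lower (0.385%). Of 9 NK receptors 0 were called, with a median log2 ratio of -0.14. Called lower were Il4, at 94.4 CPM in the members against 213 CPM (206 to 220), and Il2ra, the interleukin 2 receptor α chain, at 42.6 against 87.6 CPM. Slc35f3, at 45.8 against 85.5 CPM, was not called. Higher in the members were Itga4 (393 against 139 CPM), St6gal1, a sialyltransferase (139 against 39.7 CPM), Fam169b (64.1 against 21.4 CPM), Cd200r1, an inhibitory receptor (80.9 against 37.1 CPM), and Il2 (36.5 against 16.2 CPM). Median depth differed here, 7408 UMIs in the members and 8765 in the Zbtb16 group, and its part in the absence of a Zbtb16 UMI was not tested.

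Compared with Kcnq5-high DN barcodes at similar Kcnq5 (3170 CPM in the members and 3319 CPM in DN), 96 of 8871 genes were higher in the members (1.08%) and 112 lower (1.26%). Cd4 was 366-fold higher, as the sort sets. Fam169b was at 64.1 CPM (56.9 to 71.9) against 4.97 CPM, Il31ra, a receptor subunit for interleukin 31, at 125 against 32.9 CPM, Itga4 at 393 (375 to 411) against 104 CPM, and St6gal1 at 139 against 39.3 CPM. Rnf43, a ubiquitin ligase that removes Wnt receptors, was at 57.7 against 13.9 CPM, and Bag3, a co-chaperone, at 104 against 29.9 CPM. Gm20275, a gene known only by its model name, was at 128 against 20.7 CPM. Tnfsf8, the ligand of CD30, was at 59.9 against 14.3 CPM, and 131 of its 271 UMIs came from 2 barcodes, without which the level was 30.9 CPM.

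NK receptor genes and some adaptor and granule genes were lower in the members than in Kcnq5-high DN cells. Some NK receptor genes, such as Klra7, passed the minimum through DN only, so no count over the list is given. Klre1 was at 46.6 CPM (40.5 to 53.4) against 196 CPM, Klra1 at 20.3 against 104 CPM and Klra7 at 5.97 against 62.5 CPM, with 50 of the 92 Klra1 UMIs in 2 members. Fcer1g, the signalling adaptor of Fc receptors and NK receptors, was at 21.9 CPM (17.8 to 26.6) against 135 CPM. Gzmb, a cytotoxic granule protease, was at 11.3 against 63.7 CPM, Clnk, a signalling adaptor, at 19.4 against 83.1 CPM, Ccl4, a chemokine, at 21.7 against 77.7 CPM, and Cd7 at 23.2 against 73.9 CPM. Of 5 cytotoxic genes tested 3 were called lower and 1, Klrg1, higher, where 1.26% and 1.08% of all genes were. Klrg1, at 17.9 against 8.85 CPM, passed the minimum through the members only. The median of the 5 was -1.03 and became -0.36 without the 5% of barcodes with the most UMIs. Tcrg-C1, a γ chain constant segment, was at 20.3 against 59.5 CPM. Of the genes the study listed for DN cells 5 of 9 were lower (median -1.32), against 1.26% of all genes. The study had picked them as higher in DN than in CD4+ cells of these libraries. That direction was therefore set beforehand and is not a result.

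The members were higher than Kcnq5-high DN cells in several regulatory and coinhibitory genes. Of 8 regulatory genes 4 were called higher (median 0.57), where 1.08% of all genes were, and Tnfrsf4 among them passed the minimum through the members only. Ctla4 was at 65.0 against 30.1 CPM, Nrp1, a coreceptor, at 58.6 against 21.2 CPM, and Tnfrsf4 (OX40) at 48.2 against 5.86 CPM. Of 9 coinhibitory genes 2 were called higher and 1 lower, where 1.08% and 1.26% of all genes were. Their median was 0.96 and ran from 0.51 to 0.99 over the settings varied. Il2, 1 of 4 cytokine genes called higher among 11 tested, was at 36.5 against 12.9 CPM. Cd5, a damper of receptor signalling, was at 220 against 89.7 CPM, and Tcf7, which encodes TCF-1, at 144 against 60.2 CPM. For each of Ctla4, Cd5 and Tcf7 the other CD4+ barcodes stood higher still, at 151, 295 and 208 CPM.

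**Figure D3:**
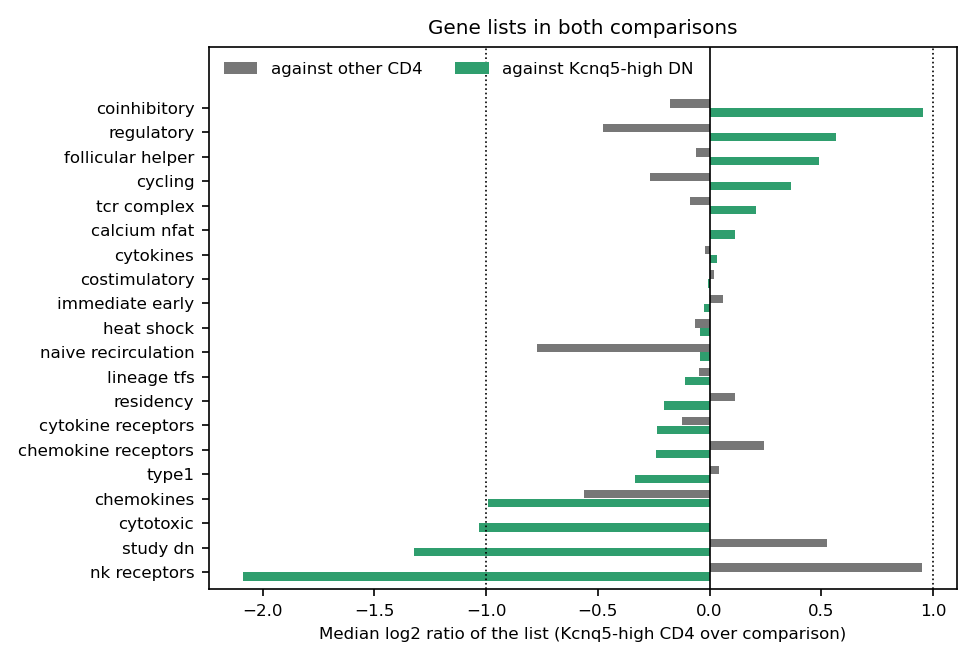
Median log2 ratio of the members over the other CD4+ barcodes and over Kcnq5-high DN barcodes (horizontal axis) for the gene lists with at least 4 genes tested in both (vertical axis), with a solid line at 0 and dotted lines at a 2-fold difference. The NK receptor list lies right of 0 against the other CD4+ barcodes (0.95) and left of 0 against DN, where some of its genes passed the minimum through DN only.

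Most other potassium channel and calcium genes stood close to their level in the other cells. Kcnn4, the calcium-activated channel of T cells, was at 117 CPM in the members, 119 CPM in the other CD4+ barcodes and 104 CPM in DN. Kcnk5, a background potassium channel, was at 57.5, 52.5 and 33.9 CPM, and Kcna3 (Kv1.3) at 6.85, 6.41 and 5.74 CPM. None of 15 genes of calcium entry and NFAT signalling was called in either comparison, with medians of 0.00 and 0.11. Kcnj8, a subunit of an ATP-sensitive potassium channel, was at 15.03 CPM in the members, from 68 UMIs in 52 of them, 7.47 CPM in the other CD4+ barcodes, so under the minimum there, and 40.3 CPM in DN.

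Most helper cytokines and lineage factors in the members stood close to the other CD4+ cells. Ifng was at 425 CPM (407 to 445) against 445 CPM, and its regulator Tbx21 (T-bet) at 303 against 292 CPM. None of 10 type 1 genes was called (median 0.04) and none of 4 type 2 genes (median 0.08). Il5 and Il17a had 0 UMIs and Il13 stood at 0.442 CPM, under the floor of 0.663 CPM. Gata3 was at 241 against 166 CPM, a difference under 2-fold. Residency genes were near level (0 of 10 called, median 0.11), with Cxcr6, a tissue homing receptor, at 934 against 759 CPM and Cd69 at 430 against 421 CPM.

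Markers of several other cell types were low or level, and those shared with innate-like T cells were not. The mast cell and basophil, erythroid and kidney tubule lists summed to 0.442, 1.55 and 1.77 CPM. Ncr1, a defining NK cell gene, had 0 UMIs, and the 4 NK cell markers, which include Klrb1c, summed to 89.1 CPM in the members, 49.4 CPM in the other CD4+, 12.9 CPM in Kcnq5-zero CD4+ and 249 CPM in DN barcodes. The 5 γδ T cell markers summed to 68.7, 59.97, 11.9 and 241 CPM in the same order, with Trdc, the δ constant segment, at 3.98 CPM in the members. The part of such cells in the results was not tested. Of the myeloid list only Cst3 passed the minimum, at 92.6 CPM in the members and 95.4 CPM in both other CD4+ and DN, and of the B cell list only Ighm, at 178, 178 and 175 CPM. Pecam1, on the endothelial list and also made by T cells, was at 92.8, 134 and 41.8 CPM, and so was called higher than in DN.

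Levels of other genes went with the number of Kcnq5 UMIs per barcode within CD4+ barcodes that lacked Zbtb16, Foxp3 and Ccr7. From 0 through 1 to 2, 3 to 4, 5 to 9, 10 to 19, 20 to 39 and 40 to 98 Kcnq5 UMIs, the barcodes numbered 3146, 608, 293, 491, 462, 202 and 53. Il4 went from 4.88 through 24.6, 46.8, 49.3, 85.3 and 101 to 127 CPM, and Klrk1 from 28.8 through 46.1, 57.7, 119, 200 and 243 to 270 CPM. Itga4 went the other way, from 794 through 744, 708, 604, 428 and 324 to 395 CPM, and Ccl5 from 1894 to 388 CPM. Cd4 itself was lower at higher Kcnq5, from 295 CPM at 0 to 129 CPM at 20 to 39 and 167 CPM at 40 to 98. Over these ranges Slc35f3 was highest at 20 to 39 Kcnq5 UMIs (56.7 CPM) and stood at 33.5 CPM in the top range. Median depth was between 6231 and 6537 UMIs in the ranges below 10 Kcnq5 UMIs and 7058, 7932 and 9084 in those above, and its part in these trends was not tested. In the DN library Itga4 ran from 624 to 65.0 CPM over the ranges and Slc35f3 from 19.7 to 121 CPM, while Klrk1 began at 686 and ended at 725 CPM.

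**Figure D4:**
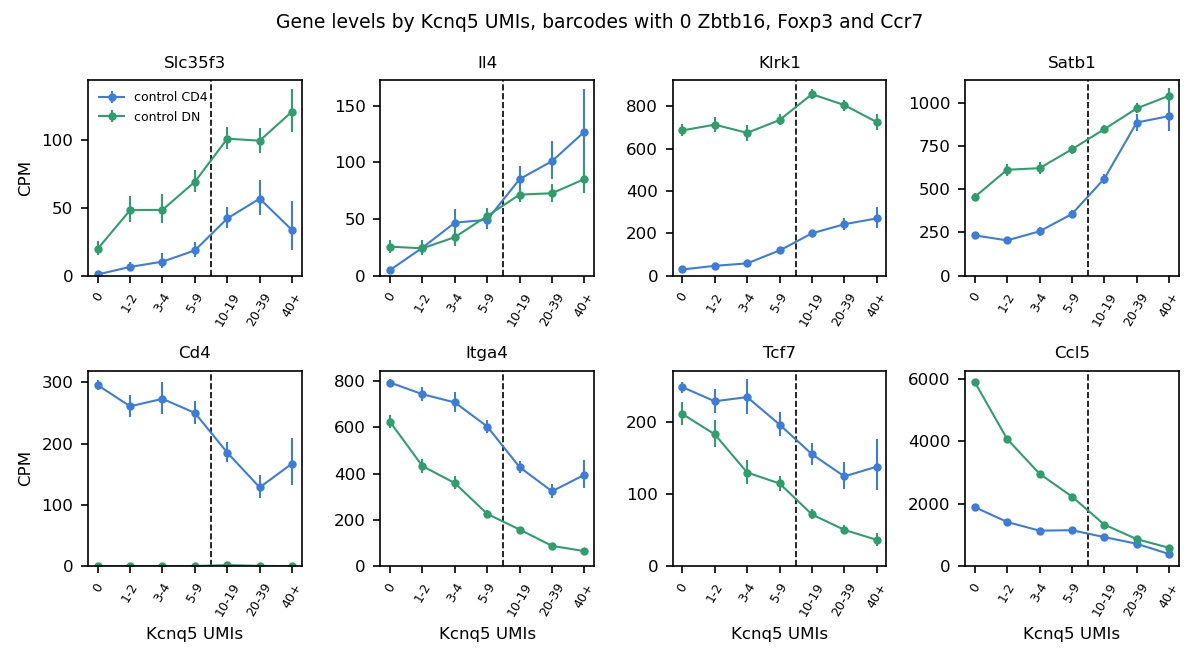
Level of 8 genes in CPM (vertical linear axis) over ranges of Kcnq5 UMIs per barcode (horizontal axis), in CD4+ and in DN barcodes of normal kidney with 0 UMIs of Zbtb16, Foxp3 and Ccr7, with bars for 95% Poisson intervals. In CD4+ cells Klrk1 goes from 28.8 to 270 CPM while Itga4 goes from 794 to 395 CPM, and in DN cells Klrk1 stands at 686 CPM with no Kcnq5 UMI at all.

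The members were not uniform. Klrk1 was seen in 231 of the 717 and Itga4 in 328, but both in 61, where the product of the 2 shares gives 106. After thinning to 2000 UMIs the numbers were 131, 203 and 13 of 694 barcodes, against 38.3. Il4 and Itga4 were together in 54 barcodes (product 88.8), Klrb1c and Itga4 in 25 (70.9), and Slc35f3 and Itga4 in 11 (38.9). Genes on the same side met more often than the product: Klrk1 with Ly6c2 in 181 barcodes (117) and Itga4 with Tcf7 in 208 (136). Il4 and Klrk1 were together in 79 barcodes, against 62.5 for the product, but after thinning in 16 against 16.0.

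Grouping the members by their expression, with T cell receptor segments and the genes of the rule left out, gave 5 clusters of 153, 236, 147, 170 and 11 barcodes, referred to by number. They follow from the expression they are described with, so their leading genes are a description. Clusters 1 and 2 (389 barcodes) had Klrk1 at 416 and 404 CPM and Itga4 at 52.0 and 45.6 CPM. Clusters 3, 4 and 5 (328 barcodes) had Klrk1 at 74.1, 25.1 and 4.97 CPM and Itga4 at 844, 591 and 473 CPM. Cd4 followed Itga4, at 75.8 and 71.6 CPM in the first pair and 273, 236 and 189 CPM in clusters 3, 4 and 5. Kcnq5 overlapped between them, with medians of 18, 19, 14, 14 and 16 UMIs. Of the 389 barcodes, 379 to 388 stayed on the Klrk1 side under 2 other seeds and 2 other resolutions, while the number of clusters varied from 3 to 10.

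Within the Klrk1 side, cluster 1 was led by Cnr2, a cannabinoid receptor, Atf3, a stress transcription factor, and Il4, at 238 CPM (206 to 272). Cluster 2 was led by Slc35f3 at 105 CPM (88.4 to 125), Klrc2 and Ly6c2, a surface protein of effector and memory T cells, and held Satb1 at 1423 CPM. On the Itga4 side, cluster 3 was led by Nrgn, with 61 UMIs from only 3 barcodes, and by Alcam, an adhesion molecule, and Il6ra, with Ctla4 at 170 CPM and Nrp1 at 152 CPM, and had a median depth of 8762 UMIs. Cluster 4 held Gata3 at 345 CPM (309 to 383) and Cd40lg, the helper ligand for CD40, at 529 CPM, while Slc35f3 had 0 UMIs in its 170 barcodes, which allows up to 3.71 CPM. Its leading gene Gzma rested on 1 barcode with 67 of 69 UMIs. Cluster 5, of 11 barcodes with a median of 17554 UMIs, was led by cell division genes such as Hmmr and Birc5 and also held Ccl1 at 2069 CPM, all of it from 2 barcodes. Doublets were not called, and their part in this deep cluster was not tested.

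The T cell receptor segments, which took no part in the clustering, also differed between the sides. The variable (V) segment Trav11 joined to Traj18 forms the invariant α chain of NKT cells, which pairs mainly with β chains that use Trbv13-2, Trbv29 or Trbv1. The ends of Trav11, Trbv13-2 and Trbv29 are shown because these segments belong to the NKT receptor, and that of Trbv3 because its share was larger on the Itga4 side. For each V segment the last 60 bases are given 5′ to 3′ from the mouse GENCODE M21 transcripts (mm10), and the capitals are the codon of the conserved cysteine that opens the junction with the next segment. Traj18 is given whole, with its 66 bases. All 5 genes lie on the plus strand, Trav11 at chr14:53519303-53519859, Traj18 at chr14:54200777-54200842, Trbv13-2 at chr6:41121396-41121832, Trbv29 at chr6:41271394-41271881 and Trbv3 at chr6:41048290-41048828.
Trav11: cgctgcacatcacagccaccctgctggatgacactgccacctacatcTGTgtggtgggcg
Traj18: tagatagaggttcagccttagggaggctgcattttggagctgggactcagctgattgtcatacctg
Trbv13-2: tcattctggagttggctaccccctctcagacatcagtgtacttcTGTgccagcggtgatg
Trbv29: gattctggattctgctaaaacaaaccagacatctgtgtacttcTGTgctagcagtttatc
Trbv3: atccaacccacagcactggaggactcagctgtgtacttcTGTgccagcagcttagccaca

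Among V segment UMIs of the α chain, Trav11 made up 14 of 66 (21.2%, 12.1 to 33.0) in clusters 1 and 2 and 3 of 171 (1.75%, 0.363 to 5.04) in clusters 3 to 5. Among β chain V segment UMIs, Trbv13-2, Trbv29 and Trbv1 together made up 57 of 116 (49.1%, 39.7 to 58.6) on the Klrk1 side and 32 of 159 (20.1%, 14.2 to 27.2) on the Itga4 side. Taken singly, the intervals of Trbv13-2, at 18.1% (11.6 to 26.3) against 11.3% (6.85 to 17.3), and of Trbv1 overlapped between the sides, and Trbv12-2, which is not part of that receptor, stood at 18.1% against 9.43%. The opposite held for Trbv3, the segment shown last, with 3 of 116 (2.59%, 0.536 to 7.37) against 18 of 159 (11.3%, 6.85 to 17.3). Several UMIs can come from 1 cell, and counted by barcode Trbv3 was in 2 of 92 (0.264 to 7.63%) against 16 of 109 (8.63 to 22.7%) barcodes with a β chain V UMI, and Trbv2 in 2 of 92 against 10 of 109 (4.49 to 16.2%), where the intervals overlapped. Trbv20 was in 0 of 92 barcodes on the Klrk1 side, which allows up to 3.93%, and in 8 of 109 (3.22 to 13.9%) on the other, and these intervals overlapped too. The UMI intervals of the 2 sides did not overlap for Trav11 and for the 3 β segments summed, which by barcode were 49 of 92 (42.6 to 63.7%) against 29 of 109 (18.6 to 35.9%), and this is a description of clusters drawn from the same cells. The 11 β segments followed here were picked after their counts were seen. Counted by barcode, Trav11 was in 13 of 52 barcodes with an α chain V UMI (14.03 to 38.95%) on the Klrk1 side and in 3 of 100 (0.623 to 8.52%) on the Itga4 side, and in most members no V segment of the α chain was captured.

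Over all members Trav11 was 17 of 237 α chain V UMIs (7.17%, 4.23 to 11.2). That share was 5.99% in the other CD4+ barcodes, 25.4% in Kcnq5-high CD4+ barcodes with a Zbtb16 UMI, 16.6% in Kcnq5-high DN and 0.198% in Kcnq5-zero CD4+ barcodes. The intervals of the members and of the Zbtb16 group (21.6 to 29.4%) did not overlap. Traj18 UMIs, which also arise from unrearranged transcripts, were at 51.9 CPM in the members and between 42.1 and 61.5 CPM in the other 4 groups, with no such contrast. Trbv13-2 was 14.2% of β chain V UMIs in the members, 23.6% in the Zbtb16 group and 7.14% in Kcnq5-zero barcodes, and Trbv3 was 7.64%, 0.492% and 9.63% in the same order.

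**Figure D5:**
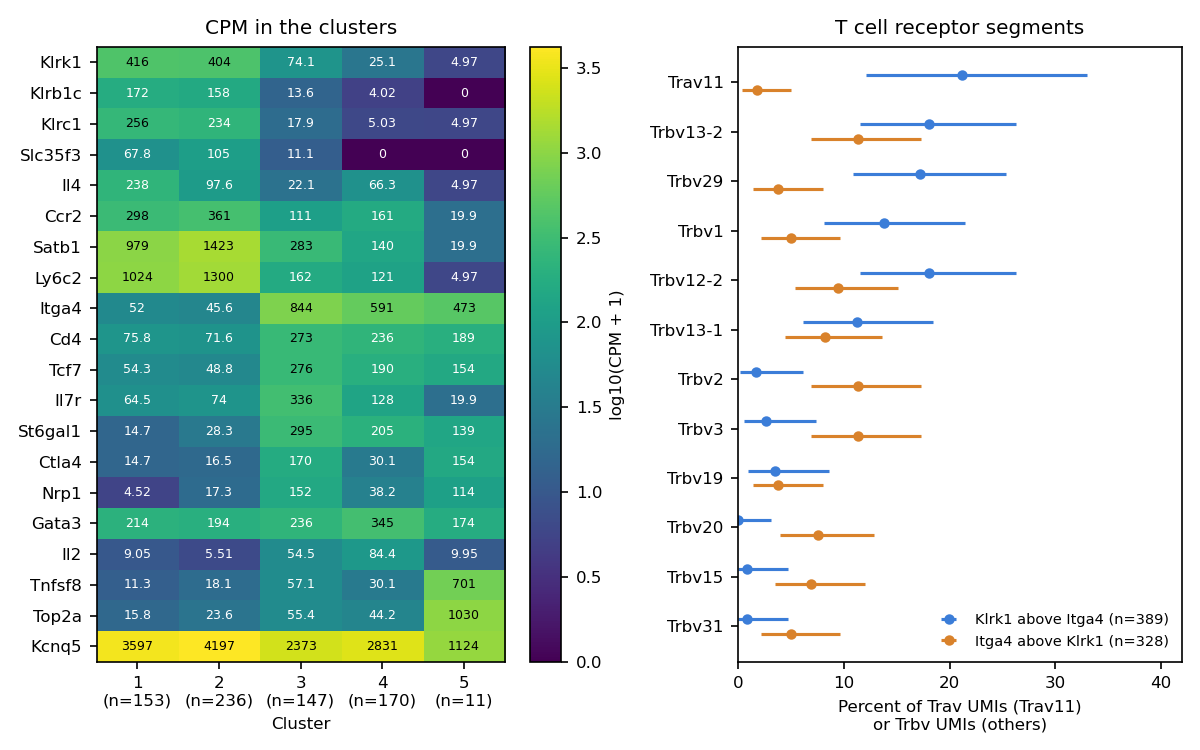
Left, level in CPM of selected genes in the 5 clusters of the 717 members (numbers in the cells, colour as log10 of CPM + 1). Right, share of V segment UMIs taken by Trav11 and by 11 Trbv segments in the barcodes of clusters 1 and 2 (Klrk1 above Itga4, 389 barcodes) and of clusters 3 to 5 (Itga4 above Klrk1, 328 barcodes), in percent of the α or β chain V UMIs, with 95% Clopper-Pearson bars. Trav11 stands at 21.2% on the first side and 1.75% on the second.

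Few barcodes of the other sorts met the same rule outside the DN library. In the normal CD8+ library 127 of 9685 barcodes did (1.31%), and these had a median of 13364 UMIs, Cd8a at 726 CPM, Cd4 at 0 and Il4 at 0.713 CPM, so they shared neither the sort gene nor the Il4 of the members. In normal DN 1804 of 9309 did (19.4%). After ischemia 26 of 10301 CD4+ barcodes met the rule (0.252%, 0.165 to 0.370), 0 of 6413 CD8+ (which allows up to 0.0575%) and 12 of 3951 DN (0.304%). The IR libraries were shallower, and a limit in UMIs passes fewer of their cells. With each barcode thinned to 2000 UMIs and shallower ones left out, the share with at least 3 Kcnq5 UMIs was 29.2% in normal CD4+ and 6.13% in IR CD4+, 51.8% and 15.3% in DN, and 1.73% and 0.118% in CD8+. Left out as too shallow were 612 of 9518 normal and 2930 of 10301 IR CD4+ barcodes, 178 of 9309 and 3002 of 3951 DN barcodes, and 1713 of 9685 and 3871 of 6413 CD8+ barcodes, so the IR DN share rests on 949 barcodes. The file headers name Cell Ranger 5.0.1 for the normal and 6.0.1 for the IR libraries, so software version, depth and condition cannot be told apart. In the 26 IR CD4+ barcodes Klrk1 was at 266 CPM, Il4 at 228 CPM and Itga4 at 164 CPM.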

How the data were processed

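Single-cell 3′ v3.1 gene expression (10x Chromium) was read from 6 libraries of T cells sorted from mouse kidney. The deposited matrices hold raw UMI counts, not normalized, from the authors' runs of Cell Ranger (5.0.1 in the file headers of the normal libraries, 6.0.1 in those of the IR libraries and in the submitters' processing notes) on mm10. The study's methods name default settings, under which these versions count reads in exons on the sense strand. The matrices hold 32285 features, of which 32235 were matched to GENCODE M21.

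Barcodes were chosen by the rule in the report. The members, the gene lists and the comparisons were chosen with earlier results of these data known. Features that are mitochondrial, ribosomal protein or Malat1 (104) were set aside, and CPM was computed over the UMIs that remained, summed per group. A call needed 10 CPM in the higher group and a 2-fold difference, and a gene at 0 was set to 3 UMIs. Genes were named by rule: the 10 with the largest log2 ratio in each direction with at least 50 CPM in the higher group, the 3 marker genes and members of the lists. The genes called at lower levels (such as Pard3, Igfbp4 and Kcnj8), the genes beside the lists, and the pairs and segments were named after their values were seen, and the comparison with the Zbtb16 group was added then. Shares were compared after thinning each barcode to 2000 UMIs. Clusters came from scanpy 1.11.5 (Leiden, igraph 0.11.9) with Python 3.11.15, numpy 2.4.6, scipy 1.17.1 and pandas 2.3.3. edgeR 4.0.16 in R 4.3.3 gave TMM factors for 1 alternative and no test. No doublet caller was run, and 1 alternative leaves out the 5% of barcodes with the most UMIs. Median depth was 7408 UMIs in the members, and 3 UMIs in them equal 0.663 CPM. The steps were tested on counts drawn with known changes. Settings that were varied are reported with their effect in the closing section.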

Additional observations from a re-analysis of the deposited data

Results flagged for a closer look

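Kcnq5-high and Kcnq5-zero barcodes, both without Zbtb16, Foxp3 and Ccr7 UMIs, were set side by side in CD4+ cells (717 and 3146 barcodes) and in DN cells (1804 and 543). Taken alone, the CD4+ cells had 128 genes at least 2-fold higher and 78 lower, and the DN cells 99 higher and 233 lower. Of 8589 genes measured in both, 39 were at least 2-fold higher and 34 at least 2-fold lower in both sorts, and 3 pointed in opposite directions. The difference between the sorts was not tested, since each sort is 1 library.

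Fcer1g, the Fc receptor γ chain, had a log2 ratio of 1.75 in CD4+ cells (21.9 against 6.51 CPM) and -1.39 in DN cells (201.5 against 529 CPM). Klra1, an Ly49 receptor with near-identical copies, had 5.76 in CD4+ (20.3 against 0.375 CPM) and -1.36 in DN (141 against 364 CPM), and 50 of its 92 UMIs in the CD4+ members were in 2 barcodes. In CD4+ cells both Fcer1g and Klra1 passed the minimum of 10 CPM through the members only. Myo1e, a class I myosin, had 1.36 in CD4+ (43.8 against 17.0 CPM) and -1.53 in DN (44.1 against 127 CPM). For Myo1e the Kcnq5-high cells of both sorts stood close together and the Kcnq5-zero cells apart.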

How the results depend on the processing

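No paired analysis was possible because each sort and condition is 1 library with no replicate number. The number of members was 717 and became 1208 with at least 5 and 255 with at least 20 Kcnq5 UMIs. Genes higher than in the other CD4+ barcodes numbered 12, and 6 with at least 5 Kcnq5 UMIs, 52 with at least 20, 44 after thinning, 29 with a mean over barcodes, 806 with no minimum level, 3 with at least 50 CPM, 109 against barcodes lacking Zbtb16, Foxp3 and Ccr7, and 128 where these also lacked Kcnq5. Genes lower numbered 43, and 28 and 105 at those Kcnq5 limits, 70 with 1 Kcnq5 UMI per 1000, 103 after thinning, 688 with no minimum, 5 with 50 CPM, 78 against the Kcnq5-zero barcodes and 82 without cluster 5. Against Kcnq5-high DN, 96 genes were higher, and 151 after thinning, 1062 with no minimum, 31 with 50 CPM and 151 where DN barcodes also lacked the 3 genes. The 112 lower became 822 with no minimum and 37 with 50 CPM.

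Ccl1 over the other CD4+ barcodes reversed from a log2 ratio of 1.27 to -1.87 without the 5% of barcodes with the most UMIs, -0.31 with 1 Kcnq5 UMI per 1000, -2.61 without cluster 5 and -2.25 without its 2 top barcodes of each group. Without cluster 5 the cycling list moved from -0.27 to -1.68 over the other CD4+ and from 0.36 to -0.67 over DN, and it was 1.05 against DN barcodes lacking the 3 genes and -1.21 over other CD4+ with 1 Kcnq5 UMI per 1000. Cytotoxic genes moved from -1.03 to -0.36 over DN without the deepest 5%, and the regulatory list from 0.57 to 1.16 over DN with a mean over barcodes. Against CD4+ barcodes lacking the 3 genes the median of the list for DN cells was 1.29, and against Kcnq5-zero barcodes 1.75, with type 2 genes at 0.70 and regulatory genes at 0.42. The list for DN cells was chosen on these samples. Against Kcnq5-zero barcodes some of its genes, such as Klrb1c and Fcer1g, passed the minimum through the members only. The same held for Il4 among the type 2 genes. Medians of NK receptors are not given there, since most of these genes passed the minimum through the members only. Against DN barcodes lacking the 3 genes Il4, which was not called, went from -0.44 to 0.35. In all, 537 of 550 list medians and 439 of 621 gene ratios moved by less than their interval or limit, and 57 of 162 shares did. Under the scaling choices the median of all genes lay between -0.026 and 0.033. Leaving out cluster 5, the top 2 barcodes and shared barcodes were chosen after seeing the data.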

Other observations

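Some further receptors and regulators were read in the groups of normal CD4+ and DN barcodes. Ikzf2, which encodes Helios, a factor of regulatory and innate-like T cells, was at 291 CPM (275 to 307) in the members, 403 CPM in the other CD4+ barcodes, 182 CPM in Kcnq5-zero CD4+ barcodes and 296 CPM in Kcnq5-high DN barcodes. Klf2, a factor of T cell egress, was at 249, 416, 453 and 256 CPM in the same order, and its target S1pr1, the egress receptor, at 36.0, 65.9, 71.4 and 26.5 CPM. For these genes the members stood closer to Kcnq5-high DN than to Kcnq5-zero CD4+ barcodes. Csf2, which encodes GM-CSF, was at 16.8 CPM in the members, 4.25 CPM in Kcnq5-zero and 36.2 CPM in Kcnq5-high CD4+ barcodes with a Zbtb16 UMI. Against Kcnq5-zero barcodes it passed the minimum of 10 CPM through the members only. Il2rb, the receptor chain shared by interleukins 2 and 15, was at 548 CPM (526 to 570) in the members, 339 CPM in Kcnq5-zero CD4+ and 660 CPM in DN. Apart from Csf2, the levels given for these genes in the other groups lay within 2-fold of the members. All of them, Csf2 included, were picked after their values were seen.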
